A study of Mus musculus with 6 samples.

Results

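The coagulation and complement proteins are plasma proteins that the liver makes, and 37 of their genes were followed here, from prothrombin (F2) and fibrinogen to complement component C9 and vitronectin. A gene was represented by the probe set that names it alone with the highest mean intensity. On this rule 35 of the 37 were measured, among 18193 genes in all, and Cpb2 and C3 were not analysed here. Fetal hepatocytes came from E16.5 livers of Cnot3KO embryos, whose floxed Cnot3 is removed by a Cre transgene driven by the albumin promoter, and of control embryos, labelled wild type. Per the methods of the study, controls could lack Cre or carry it with at most 1 floxed allele. The study reports that loss of Cnot3 was incomplete in the E16.5 liver and advanced as the cells differentiated in culture. It profiled the cells after several days in culture, at a stage where it describes Cnot3 protein as efficiently suppressed. All cells of both genotypes had been cultured with oncostatin M, an interleukin 6 family cytokine, and dexamethasone, a glucocorticoid. Total RNA was taken from Cnot3KO cells at 0, 6 and 12 h of actinomycin D (ActD), which stops transcription, and from control cells at the same times. Each genotype and time was measured on 1 Affymetrix mouse genome array, so that there were 6 arrays and no replicates.

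Clotting runs as a cascade of serine proteases. Contact factors and tissue factor start it, vitamin K-dependent proteases carry it to thrombin, and thrombin turns fibrinogen into fibrin, which factor XIII cross-links and plasmin dissolves. Complement is a parallel cascade in which lectins, antibody or spontaneous turnover build a C3 convertase, and the terminal components assemble a membrane attack complex. Hepatocytes secrete nearly all of these proteins together with the serpins that restrain them, and hepatocyte factors such as HNF1, HNF4 and C/EBP, and STAT3 downstream of interleukin 6 family cytokines, are known regulators of many of their genes.

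The promoters of 5 members that hold motif matches are shown, 4 of genes over 1.5-fold lower at 0 h and 1 that differed little. Vtn, C8a, F13b and F9 had lower intensity in Cnot3KO than in control cells by over 1.5-fold, and Fgb, with the same kinds of motif as F9, differed little. Each run is 300 bases from RefSeq on GRCm38.p6, 250 before and 50 after the annotated start, 5′ to 3′ on the gene's strand, and capitals mark motif matches.
Vtn, chr11:78498870-78499169, plus strand: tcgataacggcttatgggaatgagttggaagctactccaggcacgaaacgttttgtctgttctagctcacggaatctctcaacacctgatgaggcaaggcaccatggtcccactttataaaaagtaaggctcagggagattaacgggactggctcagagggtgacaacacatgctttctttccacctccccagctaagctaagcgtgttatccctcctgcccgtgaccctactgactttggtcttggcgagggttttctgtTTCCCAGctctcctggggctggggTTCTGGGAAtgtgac
C8a, chr4:104876349-104876648, minus strand: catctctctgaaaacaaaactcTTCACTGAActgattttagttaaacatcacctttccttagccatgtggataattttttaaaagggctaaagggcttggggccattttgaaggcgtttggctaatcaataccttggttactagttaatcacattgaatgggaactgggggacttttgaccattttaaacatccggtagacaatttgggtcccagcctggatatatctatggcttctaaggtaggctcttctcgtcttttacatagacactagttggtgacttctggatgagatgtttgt
F13b, chr1:139501457-139501756, plus strand: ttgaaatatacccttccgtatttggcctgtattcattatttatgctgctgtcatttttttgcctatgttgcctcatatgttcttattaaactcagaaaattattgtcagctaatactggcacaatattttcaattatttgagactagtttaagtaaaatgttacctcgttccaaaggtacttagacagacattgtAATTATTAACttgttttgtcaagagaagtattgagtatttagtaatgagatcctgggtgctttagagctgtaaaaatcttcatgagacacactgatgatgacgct
F9, chrX:59999214-59999513, plus strand: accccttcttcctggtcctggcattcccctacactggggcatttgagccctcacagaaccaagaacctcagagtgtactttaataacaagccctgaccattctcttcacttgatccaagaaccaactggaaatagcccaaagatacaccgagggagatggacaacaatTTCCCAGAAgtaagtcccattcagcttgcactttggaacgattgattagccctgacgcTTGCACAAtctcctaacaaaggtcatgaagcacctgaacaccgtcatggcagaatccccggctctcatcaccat
Fgb, chr3:83049814-83050113, minus strand: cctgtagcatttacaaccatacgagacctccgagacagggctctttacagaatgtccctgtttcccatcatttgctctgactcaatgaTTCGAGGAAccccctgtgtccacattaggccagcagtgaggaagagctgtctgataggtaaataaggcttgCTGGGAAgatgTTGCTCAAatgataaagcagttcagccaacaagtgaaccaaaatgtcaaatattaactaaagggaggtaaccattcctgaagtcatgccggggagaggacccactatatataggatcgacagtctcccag
The letters searched on both strands were GTTAAT followed by any base and ATT (HNF1), CAAAGTCCA (HNF4), TTGCNNAA (C/EBP), TTCNNNGAA (STAT) and CTGGGAA (an interleukin 6 response element, which can overlap the STAT letters). The capitals in F13b are an HNF1 match at bases 196 to 205 of the 300, and those in C8a are a STAT match at bases 23 to 31. In F9 a STAT match at bases 169 to 177 overlaps an IL-6 element, and a C/EBP match follows at bases 227 to 234. Fgb holds a STAT match at bases 89 to 97, an IL-6 element at bases 160 to 166 and a C/EBP match at bases 171 to 178. The matches in Vtn, an IL-6 element at bases 262 to 268 and a STAT match at bases 286 to 294 that overlaps another, lie after the annotated start. Promoters were found for 29 of the 37 listed genes. The C/EBP letters stood in 31% of these 29 and in 10.8% of all 32851 promoters, the STAT letters in 24.1% and 8.3%, the IL-6 element in 20.7% and 11.1%, the HNF1 letters in 6.9% (F13b and Hc) and 0.399%, and the HNF4 letters in 0% and 0.475%. F12, Kng1, Plg, Serping1 and Mbl1, also over 1.5-fold lower at 0 h, had no match or no promoter found. C/EBP matches stood as well in F11, Klkb1, Fga, Serpinc1 and C9, which were within 1.5-fold at 0 h. F9 and Fgb carry matches to the same 3 motifs and had different genotype differences. Fgb lay at or above the 99.77th percentile of intensity on every array. The part of any motif in the genotype differences was not tested.

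The deleted gene and the cell type were checked first. Cnot3 had 174, 174 and 146 intensity units in Cnot3KO cells at 0, 6 and 12 h of ActD, against 296, 214 and 158 in control cells. Cnot3 at 0 h was 1.70-fold lower in Cnot3KO cells, and the genotypes came together by 12 h (adjusted p = 0.182 over the 3 times). A second Cnot3 probe set was also lower in Cnot3KO cells at each time, but by little at 0 h and by more later. Its log2 differences were −0.05 at 0 h, −0.39 at 6 h and −0.38 at 12 h. Only the brighter set was thus over 1.5-fold lower in Cnot3KO cells before ActD. Whether these probe sets lie in the deleted part is not given in the sources used here. Alb, the hepatocyte marker whose promoter drives Cre, had between 33652 and 34977 units in Cnot3KO cells and between 33707 and 35595 units in control cells, at the top of the range of every array. A median of 69.7 to 72.4 units on the 6 arrays sets the scale for single values. All intensities are relative to the other mRNAs of an array, so that a stable mRNA appears to gain once others decay. Between probe sets of 1 gene the SD was 0.24 (log2) for a genotype difference at 0 h and 0.42 for a difference in 12 h change, over 4116 genes. This is a guide to technical error and not an error between embryos.

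Before ActD, most coagulation and complement mRNAs were less abundant in Cnot3KO than in control cells. At 0 h, 9 of the 35 measured members were over 1.5-fold lower in Cnot3KO cells, against 2.99% of all 16110 genes kept, and 1 (C8g) was over 1.5-fold higher, against 6.87%. The 9 were F9, F12, Kng1 (1.59-fold on its brightest probe set and −0.29 on the log2 scale, short of the limit, on the other), F13b, Plg, Serping1, Mbl1, C8a and Vtn, which belong to the intrinsic pathway, fibrin cross-linking, fibrinolysis, protease inhibition, the lectin pathway and the membrane attack complex. Cfb, Serpind1, Serpinc1, F10 and Proz, all lower, and Masp1, which was higher, lay nearest to the limit among the others, at 1.44- to 1.49-fold. The median log2 difference, Cnot3KO minus control, was −0.31 over the members and 0.04 over all genes, and 28 of the 35 members lay below zero (45% of genes). At 6 h of ActD 14 members were over 1.5-fold lower in Cnot3KO cells (7.13% of 16499 genes) and 0 were higher (17.8%), and at 12 h 23 were lower (13.8%) and 1, Masp1, was higher (27.4%). The member medians were −0.50 at 6 h and −0.74 at 12 h, beside −0.05 and −0.03 over all genes. The largest differences at 12 h were those of C8a, F13b, C8b, F9, Plg and F12.

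**Figure D1:**
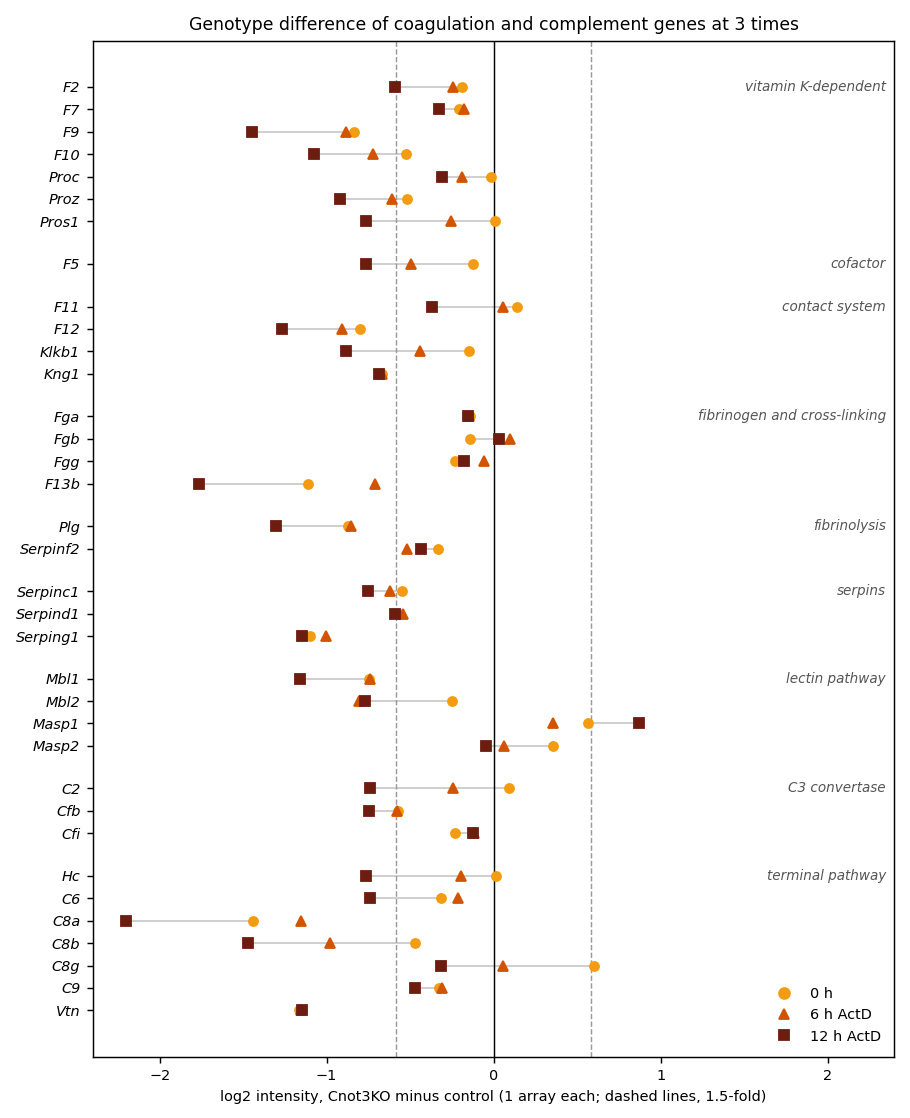
Log2 intensity in Cnot3KO minus control cells (horizontal axis) for the 35 measured genes, grouped by role, with 1 point for each time of ActD and 1 array per genotype and time behind each point. Dashed lines mark 1.5-fold. Most points lie left of zero, the fibrinogen genes lie close to it, and Masp1 lies to the right at all 3 times.

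**Figure D2:**
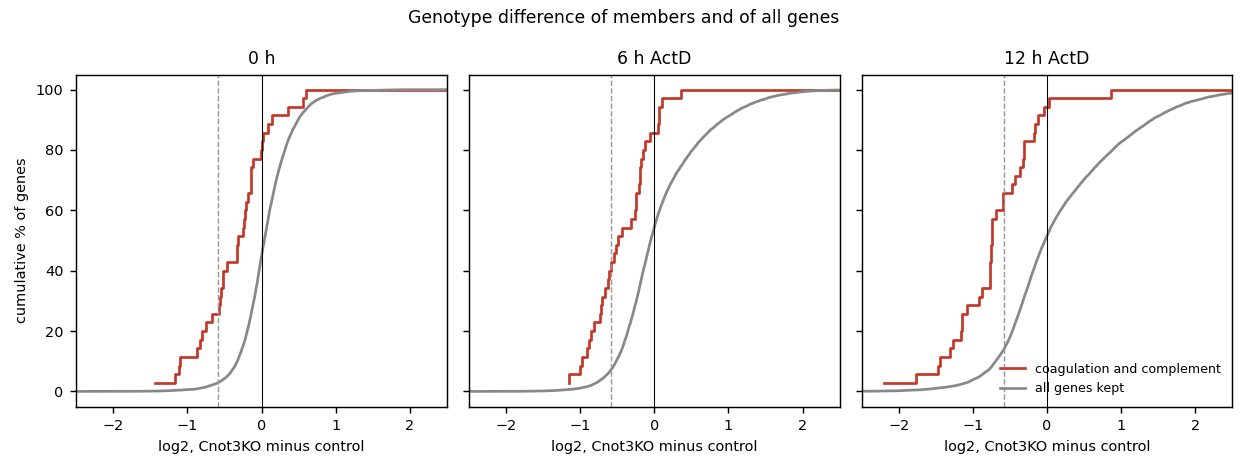
Cumulative percentage of genes (vertical axis) by log2 difference, Cnot3KO minus control (horizontal axis), for the coagulation and complement genes and for all genes kept, at 0, 6 and 12 h of ActD. The dashed line marks 1.5-fold lower, which 9, 14 and 23 of the 35 members had passed at the 3 times.

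The difference was in the same direction at all 3 times for 28 members. Of these, 27 were lower in Cnot3KO cells at every time (77.1% of members and 29.2% of all genes) and 1, Masp1, was higher (2.86% and 30.5%). The 9 members over 1.5-fold lower at 0 h were also over 1.5-fold lower at 6 and 12 h (25.7% of members and 1.28% of all genes). All Cnot3KO intensities lay below all control intensities for 16 members (12% of all genes), and above them for Masp1 (15.9%). With the 3 times taken as the only repeats, the genotype term of limma passed the adjusted threshold of 0.05 for Serping1 and Vtn, both lower (0.285% of genes), and for 0 members in the higher direction (0.703%). Without adjustment 21 members were lower at p under 0.05 (11% of genes) and 1 was higher (22.4%). The labels do not say whether the 3 times of a genotype came from separate embryos or cultures, and such a p-value measures only agreement over the times. The count of adjusted calls rests on a narrow edge, since Serping1 and Vtn had an adjusted p of 0.0499 and C8a one of 0.0501, and leaving out the 0 h arrays gave 18 members lower (with 35.3% of all genes then called in either direction, against 0.988% with all times), while leaving out the 6 h or the 12 h arrays gave 0.

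Among the 7 vitamin K-dependent proteins, which need γ-carboxylation to bind membranes, F9 differed most. F9 encodes factor IX, the protease that activates factor X and is lacking in haemophilia B. It had 48.6, 53.7 and 74.8 units in Cnot3KO cells at 0, 6 and 12 h, against 86.8, 98.9 and 204 in control cells. The genotypes did not overlap, and the difference was 1.79-fold at 0 h and 2.72-fold at 12 h (genotype term −1.05 ± 0.18 (SE), adjusted p = 0.0526). Proz, the cofactor of the factor X inhibitor serpin A10, had 239, 261 and 287 units in Cnot3KO cells and 344, 398 and 544 in control cells (−0.68 ± 0.15, adjusted p = 0.0587). The study followed Proz by qPCR in postnatal livers. A dimmer second probe set of Proz gave a difference of only −0.14 at 0 h. F10, the protease that cleaves prothrombin, had 427, 416 and 386 units in Cnot3KO cells and 613, 685 and 815 in control cells (−0.77 ± 0.17, adjusted p = 0.0566). All 3 probe sets of F10 put every Cnot3KO array below its control array at its time, with log2 differences of −0.51 to −0.63 at 0 h. F2, F7 and Proc (protein C, which inactivates factors V and VIII) differed by at most 1.15-fold at 0 h, and Pros1, its cofactor protein S, by 1.01-fold. At 12 h Pros1 had 475 units in Cnot3KO and 807 in control cells.

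F5, the cofactor that lets factor Xa make thrombin, was close between genotypes at 0 h and apart later. It had 224, 220.1 and 255 units in Cnot3KO cells, against 243, 310.3 and 433 in control cells (−0.46 ± 0.17, adjusted p = 0.132). The 3 Cnot3KO values lay close together, while the control value at 12 h was 1.78-fold that at 0 h. Among the 4 contact system genes, F12, the protease that starts contact activation, had 454, 544 and 709 units in Cnot3KO cells and 790.4, 1019.7 and 1711 in control cells (−0.99 ± 0.16, adjusted p = 0.0526). Every Cnot3KO array was below the lowest control array. Kng1, the kininogen that carries prekallikrein and releases bradykinin, had 7795, 6501 and 8415 units in Cnot3KO cells and 12391, 10345 and 13554 in control cells (−0.68 ± 0.14, adjusted p = 0.0540). On this set its difference was nearly the same at each time, at 1.59- to 1.61-fold, whereas its other set widened, with −0.29, −0.54 and −1.01 (log2). Klkb1, plasma prekallikrein, which the study followed in postnatal livers, had 354, 312 and 300.3 units in Cnot3KO cells against 391.7, 423 and 554 in control cells (−0.49 ± 0.18, adjusted p = 0.131). Klkb1 was lower in Cnot3KO cells by 1.11-fold at 0 h and by 1.84-fold at 12 h. F11, its homologue and neighbour, was 1.10-fold higher in Cnot3KO cells at 0 h.

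The fibrinogen chains differed little between genotypes. Fgb, the fibrinogen beta chain, had 24868, 24357 and 27050 units in Cnot3KO cells, against 27478, 22760 and 26491 in control cells (−0.01 ± 0.14, adjusted p = 0.980). Its groups overlapped, and Fga and Fgg differed by at most 1.17-fold at any time. The 3 fibrinogen probe sets lay at or above the 98.7th percentile of intensity on every array, and the part that this range plays in their small differences was not tested. F13b, the subunit that carries the cross-linking transglutaminase factor XIII in plasma, differed strongly instead. It had 70.2, 92.6 and 119 units in Cnot3KO cells and 152, 152 and 405 in control cells (−1.20 ± 0.23, adjusted p = 0.0538). The difference was 2.16-fold at 0 h and 3.4-fold at 12 h, with no overlap.

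In fibrinolysis, Plg, the zymogen of plasmin, had 1522, 1507 and 1638 units in Cnot3KO cells against 2786, 2724 and 4043 in control cells (−1.01 ± 0.16, adjusted p = 0.0526). The Cnot3KO values were nearly level, and the difference was 1.83-fold at 0 h and 2.47-fold at 12 h. Serpinf2, which encodes α2-antiplasmin, was lower in Cnot3KO cells by 1.26- to 1.43-fold. The 3 other serpins inhibit thrombin and the early proteases of complement and contact activation. Serping1, the C1 inhibitor, had 1052, 1142 and 1516 units in Cnot3KO cells and 2259, 2293 and 3353 in control cells (−1.08 ± 0.14, adjusted p = 0.0499). Serpinc1, antithrombin, had 3758, 4039.7 and 4752 units in Cnot3KO cells and 5492, 6218 and 7998 in control cells (−0.64 ± 0.14, adjusted p = 0.0573). Serpind1, heparin cofactor II, was 1.46- to 1.51-fold lower, so that all 3 inhibitors were lower in Cnot3KO cells at every time.

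**Figure D3:**
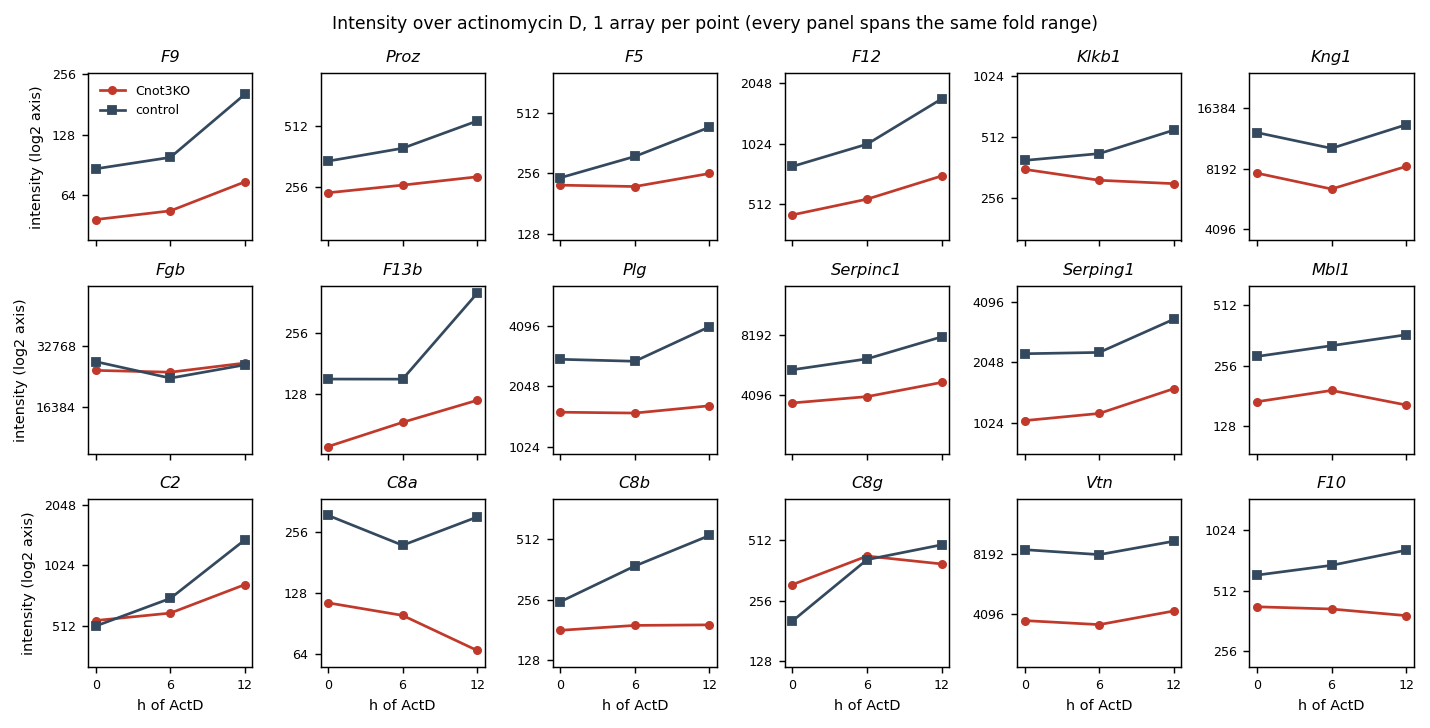
Intensity on a log2 axis (vertical) over hours of ActD (horizontal) in Cnot3KO cells (red circles) and control cells (dark squares), 1 array per point, for 18 members. The control line lies above the Cnot3KO line at every time in most panels, at a nearly constant distance for Serping1, Vtn and Kng1 and with a wider gap at 12 h for F9, F12, Plg, C8b and Klkb1, and the lines of Fgb cross.

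In the lectin pathway the lectins and their proteases differed in direction. Mbl1, a mannose-binding lectin, had 169.7, 193 and 164 units in Cnot3KO cells, against 285, 322 and 365 in control cells (−0.88 ± 0.16, adjusted p = 0.0526). Its groups did not overlap, and the difference was 1.68-fold at 0 h and 2.23-fold at 12 h. Mbl2, the other mannose-binding lectin, was 1.19-fold lower at 0 h and 1.75- and 1.70-fold lower at 6 and 12 h. Masp1, a protease that the lectins activate, was the 1 member higher in Cnot3KO cells at all 3 times, with 902, 804 and 1011 units there and 610.2, 629 and 553 in control cells (0.60 ± 0.16, adjusted p = 0.0739). Of its 5 probe sets, 3 were higher in Cnot3KO cells at all 3 times. The third brightest had 369, 298 and 232 units in Cnot3KO cells and 346, 417 and 462 in control cells, so that it was higher at 0 h and lower at 6 and 12 h, and the dimmest was lower at all 3 times. The gene is known to make several proteins with different 3′ ends, and which of them each probe set reads is not given in the sources used here. Masp2, the protease that cleaves C4 and C2, was 1.28-fold higher at 0 h and within 1.04-fold at 6 and 12 h on its brightest set. Its dimmer set was higher in Cnot3KO cells at all 3 times, by 0.70, 0.90 and 1.32 (log2).

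**Figure D4:**
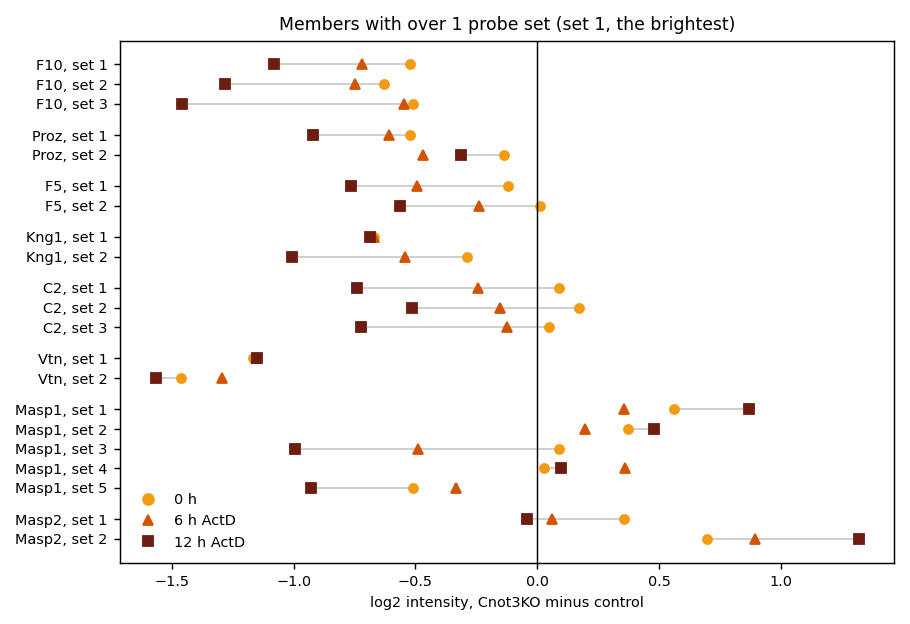
Log2 intensity in Cnot3KO minus control cells (horizontal axis) at 0, 6 and 12 h of ActD for each probe set of the 8 members that have more than 1, brightest first, 1 array per genotype and time. The sets of F10, Proz, Kng1, C2 and Vtn share their sign at each time, while those of Masp1 lie on both sides of zero.

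Of the 3 measured genes around the C3 convertase, C2 is its protease subunit in the classical and lectin pathways. On single arrays C2 was within 1.07-fold before ActD and lower in Cnot3KO cells after it. It had 545, 593 and 822 units in Cnot3KO cells, against 511, 701 and 1371 in control cells (−0.30 ± 0.20, adjusted p = 0.324). The difference was 1.07-fold higher in Cnot3KO cells at 0 h and 1.67-fold lower at 12 h, and its 3 probe sets shared both signs. Cfb, factor B, which takes the same place in the alternative pathway and is its chromosomal neighbour, was already 1.49-fold lower at 0 h and stayed 1.49- and 1.68-fold lower at 6 and 12 h. Cfi, the protease that inactivates C3b and C4b, differed by 1.17-fold at 0 h and by 1.09-fold at 6 and 12 h.

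The terminal pathway held both the largest difference and the 1 member over 1.5-fold higher at 0 h, and both are chains of component 8. The C8 protein is built of an alpha, a beta and a gamma chain, of which alpha and beta belong to the perforin-like family and gamma is a lipocalin. C8a had 114, 99.1 and 66.4 units in Cnot3KO cells, against 311, 221 and 305 in control cells (−1.60 ± 0.23, adjusted p = 0.0501). The difference was 2.72-fold at 0 h and 4.60-fold at 12 h, and the highest Cnot3KO value was below the lowest control value. C8b had 180.4, 191 and 192 units in Cnot3KO cells and 249.8, 376 and 533 in control cells (−0.97 ± 0.22, adjusted p = 0.0587). Its Cnot3KO values were level and its control values spread over 2.13-fold. C8g had 307, 426 and 389 units in Cnot3KO cells, against 203, 409 and 484 in control cells (0.11 ± 0.21, adjusted p = 0.706). It was thus 1.52-fold higher at 0 h, near equal at 6 h and 1.24-fold lower at 12 h. Hc (complement C5), C6 and C9 were between 1.01-fold higher and 1.25-fold lower at 0 h, and 1.70-, 1.67- and 1.39-fold lower at 12 h. Vtn, vitronectin, which keeps the assembling complex in solution, had 3820, 3648 and 4265 units in Cnot3KO cells and 8587, 8119 and 9463 in control cells (−1.16 ± 0.14, adjusted p = 0.0499). Its difference was the steadiest of these, at 2.22- to 2.25-fold, and its second probe set gave −1.46 (log2) at 0 h.

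After transcription had been stopped, few coagulation and complement mRNAs were lost relative to the rest. C8a alone was down by over 1.5-fold over 12 h in Cnot3KO cells (2.86% of members, beside 10.5% of all genes), and no member was down in control cells (0% and 23.2%). Relative to the other mRNAs of the array, 29 members were up at 12 h in Cnot3KO cells (82.9%, beside 58.9% of genes) and 31 in control cells (88.6% and 58.9%). The gain was smaller in Cnot3KO cells. The median log2 change over 12 h was 0.29 in Cnot3KO cells and 0.71 in control cells, beside 0.08 in Cnot3KO and 0.15 in control cells over all genes, and 9 members in Cnot3KO cells and 19 in control cells were up by over 1.5-fold (9.72% and 18.9% of genes). The control median rests on the 12 h arrays, since the median change over 6 h was 0.08 in Cnot3KO cells and 0.16 in control cells. Since these shares of all genes differed between genotypes, the background against which a member's change is read differed too, and its own decay cannot be told apart from that of the others.

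The change over 12 h was more negative in Cnot3KO cells for 30 members (85.7%, beside 52.9% of genes), with a median difference of −0.40 against −0.04 over all genes. It was lower by over 1.5-fold for 10 members (12.3% of genes), namely F9, Pros1, F5, Klkb1, F13b, C2, Hc, C8a, C8b and C8g, and higher by as much for 0 (22.9%). The genotype by hours term of limma passed the adjusted threshold for 0 members and 0 of 16499 genes (0%), and 3 members had a negative term at an unadjusted p under 0.05 (4.95% of genes), Pros1, Klkb1 and C8b. The largest difference was that of C8b, at −1.0 ± 0.28 (SE, adjusted p = 0.193), where the control value at 12 h was 2.13-fold the 0 h value and the Cnot3KO value 1.06-fold. C8g (−0.92 ± 0.43), C2 (−0.83 ± 0.34), Hc (−0.77 ± 0.53) and Pros1 (−0.77 ± 0.29) came next, with adjusted p between 0.253 and 0.464. Fitting times as levels, which was chosen after seeing the data and leaves 1 residual degree of freedom, gave a negative term for C8b (adjusted p = 0.0127), C8g (0.0259) and C2 (0.0487), among 757 negative and 2777 positive calls over all genes. The members did not share 1 pattern: Vtn, Kng1, Serping1 and Serpind1 differed from control before ActD and changed alike afterwards, within 0.05 (log2) on their brightest sets (the other sets of Kng1 and Vtn gave −0.72 and −0.11), while C2, Hc and Pros1 were within 1.07-fold before ActD and differed after 12 h.

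**Figure D5:**
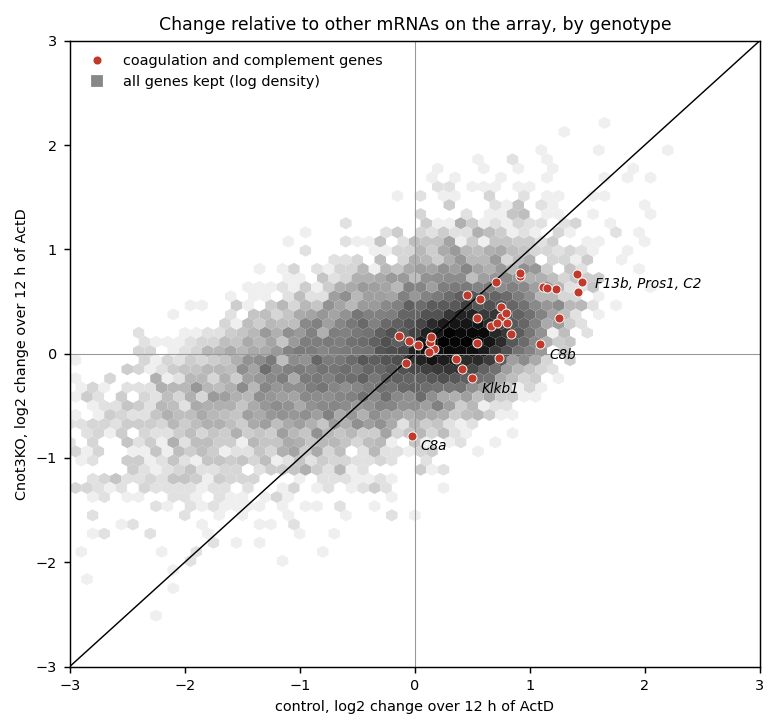
Log2 change over 12 h of ActD in Cnot3KO cells (vertical axis) against that in control cells (horizontal axis), 1 array per genotype and time, for the coagulation and complement genes (red) and for all genes kept (grey, log density, the few beyond the axes not drawn). The line marks equal change. Most members lie right of zero and below the line, and C8a lies lowest.

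Several members are neighbours on the chromosome, with no protein-coding gene between them in RefSeq, and this gives 7 adjacent pairs. C8b and C8a, on chromosome 4, had differences of −0.47 and −1.44 (log2) at 0 h. Their changes over 12 h differed between genotypes by −1.0 and −0.76, Cnot3KO minus control. F7, F10 and Proz lie side by side on chromosome 8, with 0 h differences of −0.20, −0.52 and −0.52, and F11 and Klkb1 on the same chromosome differed by 0.14 and −0.15. Fgg, Fga and Fgb on chromosome 3 were all within −0.23 to −0.14. The neighbours Cfb and C2 on chromosome 17 were the least alike at 0 h after C8b and C8a, at −0.57 and 0.09.

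Other genes of both pathways, which include receptors, regulators and components made by other cells, were measured for 38 of 47 listed, of which 37 passed the filter on low values. At 0 h 9 of 36 were over 1.5-fold lower in Cnot3KO cells (2.99% of all genes) and 2 were higher (6.87%). The members gave a similar count, 9 of 35 lower. The median difference of the other genes was −0.12. The genotype term passed the threshold for F13a1 and Colec11, both lower (0.285% of all genes), and for Thbd, which was higher (0.703%). Each had an adjusted p of 0.0499 by this term. Thbd, the endothelial thrombin receptor thrombomodulin that turns thrombin into an activator of protein C, had 309.8, 322 and 498 units in Cnot3KO cells, against 108, 54.1 and 71.2 in control cells. Procr, the receptor of protein C, had 714, 985 and 1235 units in Cnot3KO cells and 326, 574 and 729.6 in control cells. Both receptors of the protein C pathway were thus higher in Cnot3KO cells at all times, while Proc itself was within 1.24-fold. F13a1, the catalytic subunit of factor XIII, had 1575, 1222 and 515 units in Cnot3KO cells and 3325, 3029 and 1604 in control cells, so that both subunit genes of factor XIII were lower. Ggcx, the γ-carboxylase that modifies the vitamin K-dependent proteins, had 147, 125 and 126 units in Cnot3KO cells and 249, 368 and 382 in control cells (−1.30 ± 0.21, adjusted p = 0.0526), and Vkorc1, which recycles vitamin K, was within 1.10-fold at each time. Colec11, a collectin, had 59.7, 57.8 and 42.8 units in Cnot3KO cells and 133, 136 and 150.2 in control cells. A2m, Hrg, C1qa, C1qb, Fcna and C5ar1 were also lower at 0 h, by 2.09-, 1.79-, 1.75-, 1.60-, 1.54- and 1.52-fold. Serpina10, the inhibitor that protein Z assists, had 5986, 4930.4 and 5672 units in Cnot3KO cells and 6295, 3975 and 2678 in control cells, the reverse of Proz over ActD, and Vwf, von Willebrand factor of endothelium and platelets, was 1.28-fold lower at 0 h and 2.93-fold lower at 12 h.

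Markers of other cell types moved with genotype in the same arrays, and their part in the differences was not tested. In bulk RNA, fewer cells of a type and less of an mRNA per cell cannot be told apart. The 8 measured hepatocyte markers of 10, which include Fgb, had a median difference of −0.04 (log2) at 0 h and summed to between 141110 and 147880 units in Cnot3KO cells and between 139920 and 153250 in control cells. Those sums rest largely on Alb and Fgb, a member itself, which lay at or above the 99.77th percentile of every array. Medians at 0 h were −0.26 for 12 macrophage markers, −0.30 for 12 endothelial, −0.29 for 7 megakaryocyte, −0.23 for 10 stellate cell and −0.46 for 5 erythroid markers. In the same order, 3, 2, 0, 1 and 2 markers were over 1.5-fold lower at 0 h (2.99% of all genes). Lower at all 3 times were 8, 10, 7, 9 and 3 (29.2% of all genes). The genotype term passed for 3 macrophage markers, all lower (0.285% of all genes), and 2 cholangiocyte markers, both higher (0.703%). It passed for 0 in the other marker lists. Medians of these markers at 12 h were −0.27, −0.43, −1.08, −1.16 and −0.30 in that order. Their sums over the 3 times ran from 14486 to 17377 units in Cnot3KO cells and from 16269 to 19128 in control cells for macrophages, and for endothelium from 935 to 1691 in Cnot3KO and from 1332 to 2442 in control cells. For megakaryocytes they ran from 3432 to 3967 in Cnot3KO and from 4581 to 7517 in control cells. For stellate cells they ran from 8923 to 14035 in Cnot3KO cells and from 17771 to 19231 in control cells, and for erythroid cells from 5034 to 5590.2 in Cnot3KO and from 7828 to 9152 in control cells. The 6 cholangiocyte markers went the other way, with a median of 0.89, 4 of 6 over 1.5-fold higher at 0 h, and sums from 34110 to 41341 units in Cnot3KO cells and from 19421 to 22716 in control cells. None of the intensities in the table was 0, the lowest being 5.75.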

How the data were processed

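Total RNA was hybridised to 6 Affymetrix mouse genome arrays, 1 for each genotype and time, grouped by the labels of the samples. The authors summarised the probe sets by RMA (Robust Multi-array Average; its version is not given in the sources used here), and the values they deposited are intensities on a linear scale, of which log2 was taken here. RMA equalises the arrays, so that a loss common to every mRNA is not visible. Gene names came from the annotation of the platform (34945 of 45037 with 1 symbol, 932 with several, 9160 with none), which gave 18193 genes. Genes were kept if at least 1 array compared held them above its 20th percentile, which left 16499 genes over all arrays and 16110 at 0 h, with all 35 measured members among them. The members and lists were chosen with earlier results of these data known. Genes named with values on every array were beyond 1.5-fold at 0 h, passed a term or differed by over 1 (log2) in their change over 12 h. Others were followed by the study in postnatal livers (Klkb1, Proz) or stood for their role. F10, Cfb, Masp1 and others were added after their values were seen. The models were genotype with time as levels and genotype by hours, each with 2 residual degrees of freedom, in limma 3.58.1 (R 4.3.3), adjusted by the Benjamini-Hochberg method over all genes at 0.05, and were tested on simulated data. The number of arrays limits the precision. Alternatives comprised the filter, the probe sets, the centring, a floor, the variance trend and leaving out a time. GRCm38.p6 tables served for names, neighbours and promoters.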

Additional observations from a re-analysis of the deposited data

Results flagged for a closer look

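The genotypes moved in opposite directions over ActD at both times for F10 and Klkb1, which is why these are listed. The log2 change of F10 was −0.04 at 6 h and −0.15 at 12 h in Cnot3KO cells, against 0.16 and 0.41 in control cells, a difference of −0.557 over 12 h. The test of that difference did not pass (limma genotype by hours term, adjusted p = 0.343). The change of Klkb1 was −0.18 and −0.24 in Cnot3KO cells, against 0.11 and 0.50 in control cells, a difference of −0.736 over 12 h (adjusted p = 0.274). Such opposite movement was seen for 2 of 35 members (5.71%) and for 2275 of 16499 genes (13.8%), and with 1 array per time it has no replicate check.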

How the results depend on the processing

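The count of members lower in Cnot3KO cells by the adjusted genotype term (2) depended most on the processing. It was 0 without a filter, when genes had to pass the 50th percentile and when values were floored at the 20th, where 0 genes passed in all and 5761, 4887 and 5526 had an unadjusted p under 0.05. It was 14 with the mean of probe sets (1 higher), 7 with sets free of a shared-sequence suffix (1 higher), 16 centred on Gapdh and 13 with a variance trend, where 1625, 649, 2639 and 2063 genes passed in all, against 163. Leaving out 1 time gave 0 to 18 lower and 0 to 1 higher, and 13 to 23 lower at an unadjusted p (21 with all times). Centring on Gapdh gave 14 members over 1.5-fold lower at 0 h and 0 higher. It also moved the median 0 h difference of all genes from 0.04 to −0.03, and their share beyond 1.5-fold under this centring was not counted. The median change of all genes in control cells moved from 0.15 to 0.34. Without the 12 h arrays only the change to 6 h remained, with a control median of 0.161 and a median difference in change of −0.0524. Without the 0 h arrays the change from 6 to 12 h gave 0.467 and −0.267. Leaving out the 6 h arrays cannot alter the 12 h values (0.709 and −0.401). The genotype by hours term gave 3 members with times as levels, chosen after seeing the data, against 0, and could not be tested without a time, for lack of residual degrees of freedom. Another probe set gave −0.14 for Proz, −0.29 for Kng1 and −1.46 for Vtn at 0 h, and −0.72 for the change of Kng1. Of the named members' values, 68 of 68 under both centrings and 8 of 12 with other probe sets moved by less than 1 SD between probe sets. Centring shifts every gene of an array by the same amount, so the 68 are not separate checks of the members. Signs of small values turned in 3 of the values under centring and in 2 with other probe sets. The change of Fgb went to −0.04 and that of Vtn to −0.20 on Gapdh, that of Kng1 to 0.001 on ribosomal genes, that of Vtn to −0.11 on its other set, and F5 at 0 h to 0.01 on its other set. No paired analysis was possible because no group has replicates to pair, although the genotype term compares the genotypes within each time. With 1 array a group, no difference at a single time has an error of its own.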
